A study of Mus musculus with 6 samples.

Results

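Oligodendrocyte precursor genes were followed in RNA of 6 primary mouse microglial cultures, 3 of them Dap12-deficient and 3 wild-type, with 1 array per sample. The members were 7 genes, Cspg4, Pdgfra, Gpr17, Olig1, Olig2, Sox10 and Nkx2-2. They were taken as every probe set that the platform annotation assigns to exactly 1 gene symbol and whose symbol is among them. The array named 18193 genes in this way, and the 7 members had 12 of its 45101 probe sets, of which 11 were bright enough to be tested. Dap12, encoded by Tyrobp, is the adaptor through which Trem2 and other receptors of myeloid cells signal, and the deficient cultures lack it. The labels call the groups Dap12-ko and wt. They give neither the strain, the age of the animals and the knockout allele, nor how the microglia were separated from other brain cells. The titles of 4 samples carry a pair of numbers and those of the other 2 a single number, with no statement of what these are, so whether an array holds pooled cultures is not known. The labels also leave unsaid whether the cultures were raised from separate animals, and the p-values cover only the spread between cultures, which may be technical.

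Oligodendrocyte precursors are dividing glial cells that populate the brain and mature into the cells that make myelin. They are recognised by the surface proteoglycan NG2, encoded by Cspg4, and by the receptor for platelet-derived growth factor encoded by Pdgfra, and they are kept in the lineage by the transcription factors Olig1, Olig2, Sox10 and Nkx2-2. Gpr17, a receptor with orphan status, appears as precursors begin to mature, and NG2 and Pdgfra are lost as myelin genes come on. NG2 is also made by pericytes, the cells that wrap capillaries. Mixed glial cultures, from which microglia are commonly raised, contain this lineage.

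The signal of a probe set is a linear intensity that had been scaled to a common trimmed mean on every array. The arrays had median signals of 11.9 to 14.0 in the wild-type and 14.6 to 16.5 in the Dap12-deficient cultures, and precision is limited by the number of arrays, 3 per group. Tyrobp had signals of 5396 to 7271 on the wild-type and 96.2 to 125 on the deficient arrays, as the labels require. The microglial receptor gene Csf1r was at 5439 to 9522 over the 6 arrays. Precursor genes were measured in the same RNA, with Olig1 at 1247 to 1532. Sex-linked genes differed between the groups by their values. Eif2s3y, a Y-linked translation factor gene, was at 571 to 649 on the wild-type and 64.5 to 176 on the deficient arrays, and Xist, the RNA that silences an X chromosome, was higher on the deficient arrays. Its brightest probe set gave 251, 277 and 1164 in the wild-type and 2514, 2483 and 1228 in the Dap12-deficient cultures, so that replicate 3 of the 2 groups was nearly alike. Its second-brightest gave 88.9 to 99.8 and 427 to 2571. Genotype and the sex of the animals therefore cannot be told apart in these cultures.

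Cspg4 was the member that differed most between the groups, and it was lower in the Dap12-deficient cultures on both of its probe sets. Its brighter probe set, 1423341_at, gave signals of 174, 165 and 162 on the wild-type arrays (replicates 1, 2 and 3) and 45.8, 55.4 and 43.3 on the Dap12-deficient ones, in the same order. All 3 deficient cultures lay far below every wild-type culture, and the arrays within each group were close together. The means were 167 ± 6.42 (SD, n = 3) and 48.2 ± 6.37 (SD, n = 3), a 3.46-fold difference in mean signal. On the scale of log2(signal + 16), used for all differences because it steadies dim values while understating their change, the difference was -1.51 (SE 0.18, 95% interval -1.92 to -1.11). It ranked 3 of 27022 tested probe sets by p in limma, with a Benjamini-Hochberg adjusted p of 0.0613, and so did not pass the threshold of 0.05. Only 19 probe sets had a difference further below 0. The adjusted p fell under the threshold without Dap12-deficient replicate 1 (0.0361) and without Dap12-deficient replicate 2 (0.024), and was 0.524 at its highest, without wild-type replicate 1, while the difference stayed between -1.59 and -1.46. With a term for whether a title carries a pair of numbers or 1, the difference was -1.51 (SE 0.19, limma adjusted p = 0.164).

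The dimmer probe set of Cspg4, 1450944_at, gave 25.8, 28.7 and 25.8 in wild-type cultures and 11.7, 19.0 and 18.1 in the Dap12-deficient cultures. The groups did not overlap here either, but the gap was narrower. The mean signals differed 1.64-fold, and the log2 difference was -0.41 (95% interval -0.82 to -0.0049, SE 0.18, limma adjusted p = 0.464). With a smaller pseudocount of 1 it was -0.71, so the 2 probe sets differed in size under both settings and had the same direction. The positions of the probes on the transcript were not analysed here. In RNA from a whole culture, fewer cells that make a transcript and less of it per cell cannot be told apart, and this holds for every gene below.

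**Figure D1:**
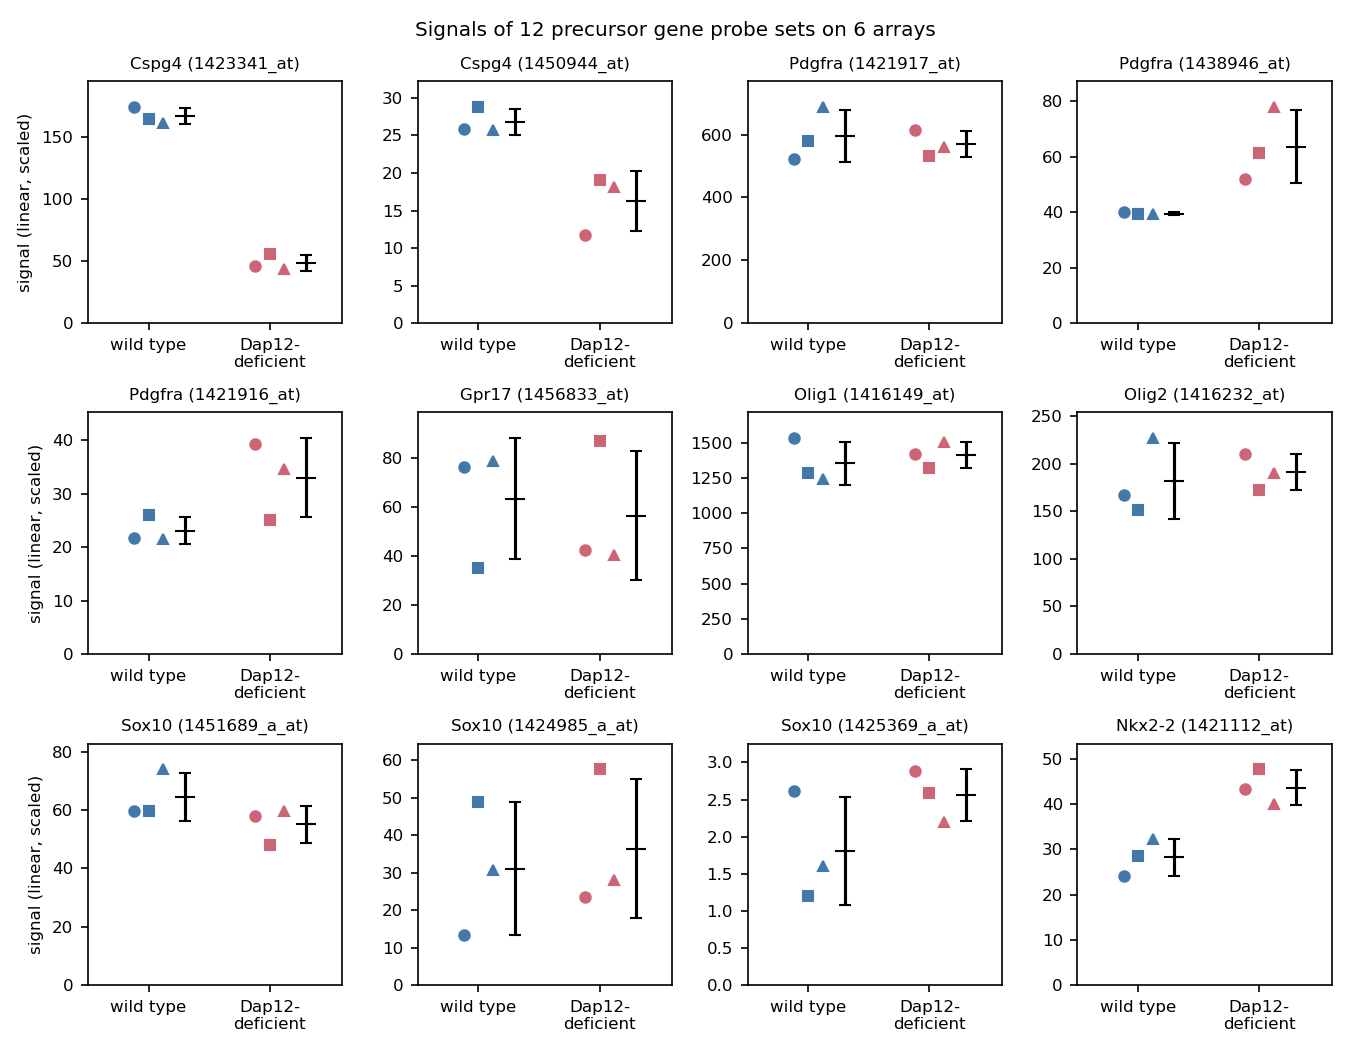
Signals (linear, scaled) of the 12 precursor gene probe sets in wild-type (blue) and Dap12-deficient (red) cultures, with 1 point per array (circle, square and triangle for replicates 1, 2 and 3) and the mean ± SD (n = 3) in black beside them. On 1423341_at of Cspg4 the wild-type arrays sit between 162 and 174 and the deficient arrays between 43.3 and 55.4, while Olig1, Olig2 and the brightest Pdgfra probe set overlap.

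Pdgfra, the receptor through which platelet-derived growth factor keeps precursors dividing, had 3 probe sets that did not move alike. Its brightest, 1421917_at, gave 523, 581 and 687 in the wild-type and 613, 533 and 562 in the Dap12-deficient cultures. These ranges overlapped widely, with all 3 deficient values inside the wild-type range. The log2 difference was -0.06 (95% interval -0.47 to 0.36, SE 0.19, limma adjusted p = 0.931). A dimmer probe set of the gene, 1438946_at, gave 40.2, 39.2 and 39.2 against 51.9, 61.2 and 77.8. Here every deficient array was above every wild-type array, the direction opposite to Cspg4. The log2 difference was 0.51 (SE 0.19, 95% interval 0.08 to 0.94, adjusted p = 0.401). The dimmest, 1421916_at, had 21.6 to 26.0 in the wild-type and 25.0 to 39.4 in deficient cultures, with a log2 difference of 0.32 (SE 0.19) and overlapping arrays.

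Gpr17, the receptor of precursors that begin to mature, varied more within the groups than between them. Signals were 76.2, 35.0 and 78.7 in the wild-type and 42.3, 86.8 and 40.1 in the Dap12-deficient cultures. Low and high values occurred in both groups, and the log2 difference was -0.13 (95% interval -0.81 to 0.54, SE 0.31, limma adjusted p = 0.902). The interval was the widest among the brightest probe sets of the 7 genes, so a sizeable change of this gene in either direction was not detectable with these arrays.

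Olig1 and Olig2, basic helix-loop-helix factors that lie next to each other in the order of protein-coding genes of GRCm38.p6, did not differ between the groups beyond the spread of their arrays. Olig1 gave 1532, 1286 and 1247 in the wild-type and 1424, 1320 and 1505 in the Dap12-deficient cultures. Olig2 gave 167, 151 and 226 in the wild-type and 210, 172 and 190 in deficient cultures. All deficient values of both genes fell inside the wild-type range. The log2 difference was 0.07 for Olig1 (SE 0.18, 95% interval -0.32 to 0.46, limma adjusted p = 0.916) and 0.08 for Olig2 (SE 0.21, 95% interval -0.38 to 0.54, adjusted p = 0.916). Their sign depended on the scaling, since with a common median for all arrays the differences were -0.18 and -0.16. Neither interval reached the difference of Cspg4.

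Sox10, a high mobility group factor that maintains the lineage and drives myelin genes, was measured by 3 probe sets. The brightest, 1451689_a_at, gave 59.8, 59.8 and 74.0 in the wild-type and 57.9, 48.0 and 59.7 in the Dap12-deficient cultures. The groups did not overlap, but the highest deficient and the lowest wild-type value were nearly the same. The log2 difference was -0.18 (95% interval -0.59 to 0.24, SE 0.19, limma adjusted p = 0.763). A second, 1424985_a_at, ranged from 13.4 to 49.0 in the wild-type and from 23.5 to 57.6 in deficient cultures, with a log2 difference of 0.17 (SE 0.32). The remaining one, 1425369_a_at, had signals of at most 2.89 and was too dim to be tested.

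Nkx2-2, a homeodomain factor that represses Pdgfra as precursors mature in mouse, was higher in the deficient cultures by its values. Signals were 24.1, 28.5 and 32.2 in the wild-type and 43.4, 47.7 and 39.97 in the Dap12-deficient cultures. Every deficient array was above every wild-type array, again opposite to Cspg4. The mean signal was 1.55 times that of wild-type, and the log2 difference was 0.43 (95% interval 0.03 to 0.84, SE 0.18, limma adjusted p = 0.446), which did not pass.

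**Figure D2:**
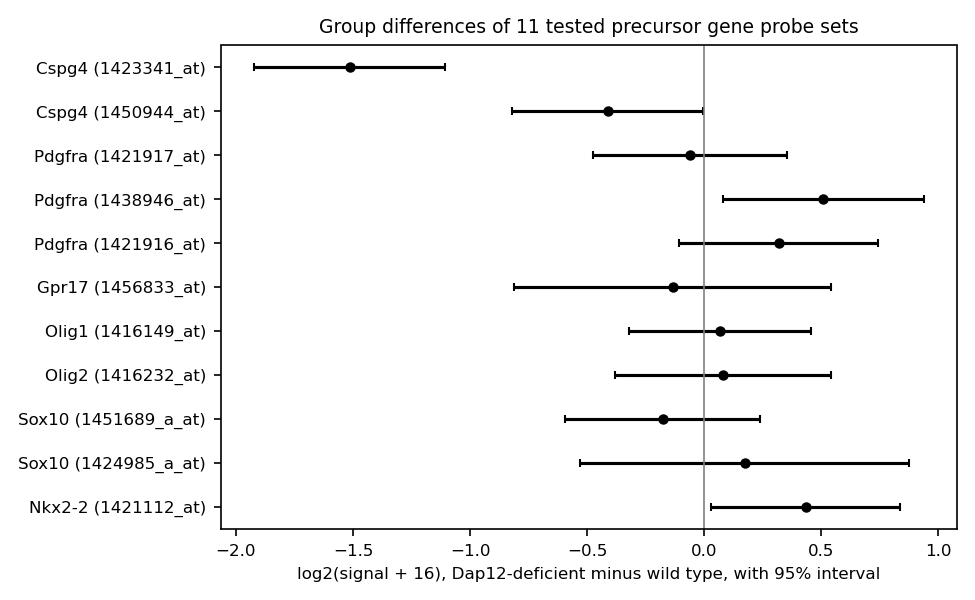
Differences between Dap12-deficient and wild-type cultures on the scale of log2(signal + 16) for the 11 tested probe sets, with 95% intervals from limma (3 against 3 arrays). The interval of the brighter Cspg4 probe set, -1.92 to -1.11, lies below the lower ends of all intervals of the other 6 genes, the lowest of which is -0.81. That of the dimmer Cspg4 probe set, -0.82 to -0.0049, overlaps intervals of other genes.

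Of the 11 tested probe sets, 0 passed the adjusted threshold in limma, where 0.0074% of all tested probe sets did. At an unadjusted p under 0.05 there were 4, of which 2 were lower (both of Cspg4) and 2 higher (Pdgfra 1438946_at and Nkx2-2). That is 36.4% of the tested members against 10.7% of all tested probe sets, 3.61% lower and 7.05% higher. Arrays did not overlap between the groups for 5 probe sets, 3 below and 2 above wild-type, against 16.5% of all probe sets (6.89% below and 9.6% above). The 5 came from 4 genes, and the brightest probe sets of Pdgfra, Gpr17, Olig1 and Olig2 overlapped. Over the brightest probe sets of the 6 genes other than Cspg4 the median difference was 0.0035, against a median of -0.03 over the brightest probe sets of 12875 genes.

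The question whether Cspg4 moved apart from the other precursor genes was put to the arrays directly, through the log2 ratio of Cspg4 to each of the other 6 genes on the same array. Relative to Olig1, the log2 ratio was -3.03, -2.85 and -2.83 in the wild-type cultures and -4.54, -4.23 and -4.68 in the deficient ones. The ratio was lower on every deficient array, with a difference of -1.58 (SE 0.15) between the group means. Relative to Pdgfra the difference was -1.45 (SE 0.19), relative to Olig2 -1.59 (SE 0.23) and relative to Gpr17 -1.38 (SE 0.35). The smallest was -1.34 (SE 0.19), against Sox10, and the largest -1.95 (SE 0.11), against Nkx2-2. In all 6 pairs the groups did not overlap and the two-sided exact permutation p was 0.1, the smallest that 3 against 3 arrays allow, so no pair could pass 0.05 by this test. The background is high, because the ratio of Cspg4 to any other tested probe set was below wild-type without overlap in 98.4% of 27021 cases. The separation thus carries the low signal of Cspg4 and is not particular to precursor genes as partners.

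**Figure D3:**
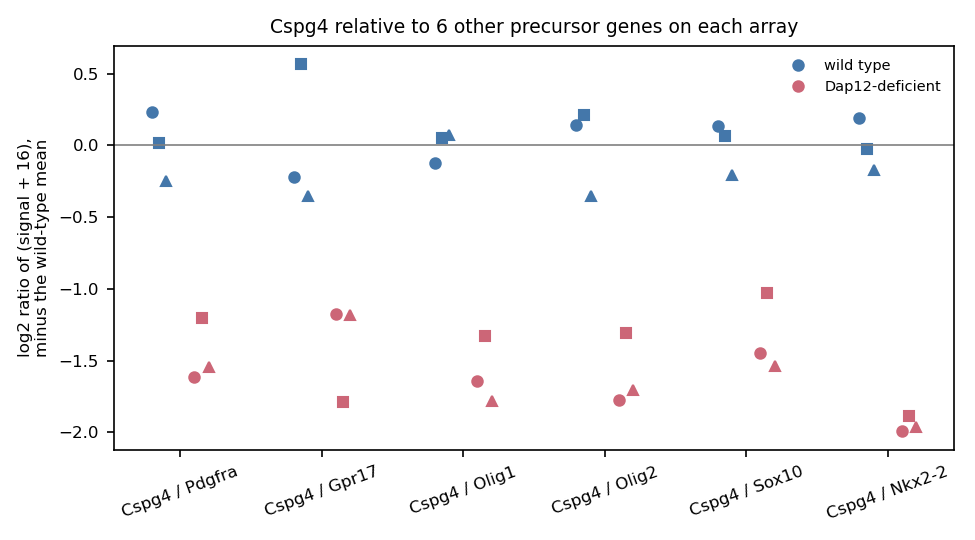
Log2 ratio of Cspg4 to each of 6 other precursor genes (brightest probe sets, signal + 16) on each array, set to 0 at the wild-type mean of each pair; blue, wild-type; red, Dap12-deficient; circle, square and triangle, replicates 1, 2 and 3. All deficient points lie below all wild-type points in every pair, with mean differences from -1.34 (Sox10) to -1.95 (Nkx2-2).

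How alike the members were over the 6 arrays was described by the root mean square distance between their log2 signals after centring each gene on its own mean. A gene that varies little is close to many others by this measure. The members nearest each other were Pdgfra and Sox10, at 0.09, where Sox10 ranked 134 of 12874 genes by nearness to Pdgfra. Olig2 and Pdgfra were at 0.12, with Pdgfra at rank 199 for Olig2. Cspg4 stood away from all of them. Its nearest fellow member was Sox10, at 0.69 and rank 3324, when the median distance of all genes from Cspg4 was 0.78.

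The genes with the pattern most like that of Cspg4 were Nudt19, a peroxisomal coenzyme A hydrolase gene, at a distance of 0.15, the immunoglobulin heavy chain gene Ighm at 0.23 and the serpin gene Serpinb6b at 0.24. Each of these, like Cspg4, had its 3 deficient arrays below its 3 wild-type arrays. This follows from choosing them by nearness to Cspg4 over the same arrays. Nearest to Pdgfra were Cdca7, Mtpap and Adamts3 (0.03 to 0.04), to Gpr17 Sumf2, Meak7 and Tmed7 (0.08 to 0.13), and to Olig1 Atp6v0a1, Nudt21 and Hemk1 (0.03 to 0.04). For Olig2 they were Togaram1, Vcan and Alkbh1 (0.03 to 0.05). Vcan, a matrix proteoglycan that precursors also make, gave 282, 232 and 361 in the wild-type and 335, 286 and 307 in the Dap12-deficient cultures, with all deficient values inside the wild-type range. Nearest to Sox10 were Tnfaip8, Zfp386 and Nt5e (0.03 to 0.05), and to Nkx2-2 Nmrk1, Mcfd2 and Pcsk1n (0.04 to 0.06).

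The promoters of Cspg4 and Nkx2-2 are shown because these genes had the differences furthest below and above 0 among the brightest probe sets of the 7 members. Promoters of 4 of the 7 genes, Cspg4, Pdgfra, Olig2 and Nkx2-2, were taken from RefSeq's table of GRCm38.p6. Each window runs from 250 bases before to 50 bases after a start that the table gives for the gene, 5′ to 3′ on the strand of the gene. For Nkx2-2 and Pdgfra this start lies inside the annotated extent of the gene and not at its outer end. Capitals mark an E-box, CANNTG, the motif of basic helix-loop-helix factors such as Olig1 and Olig2, or a GC box, GGGCGG, on either strand. The Cspg4 window is chr9:56864854-56865153 on the plus strand, and that of Nkx2-2 is chr2:147186353-147186652 on the minus strand.
Cspg4: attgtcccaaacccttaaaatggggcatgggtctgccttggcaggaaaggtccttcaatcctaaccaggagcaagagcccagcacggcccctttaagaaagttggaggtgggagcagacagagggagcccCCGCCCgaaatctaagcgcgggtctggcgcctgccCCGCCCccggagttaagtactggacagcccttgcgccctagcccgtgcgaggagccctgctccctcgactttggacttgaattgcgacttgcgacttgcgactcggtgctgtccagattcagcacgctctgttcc
Nkx2-2: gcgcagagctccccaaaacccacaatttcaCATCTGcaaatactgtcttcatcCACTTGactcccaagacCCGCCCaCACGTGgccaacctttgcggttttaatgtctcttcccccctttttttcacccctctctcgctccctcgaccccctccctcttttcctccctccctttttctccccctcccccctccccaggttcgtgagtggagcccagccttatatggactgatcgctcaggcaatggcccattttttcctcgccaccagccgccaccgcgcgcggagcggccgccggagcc
The Cspg4 window held 0 E-boxes and 2 GC boxes, and the Nkx2-2 window 3 E-boxes and 1 GC box, with no overlap between motifs. Pdgfra had 2 E-boxes and 0 GC boxes, and Olig2 0 and 2. Among 32851 mouse promoter windows of this length, 72.3% held an E-box and 35.7% a GC box. The motif ACAAAG of SOX factors such as Sox10, searched on both strands, was in 18.7% of the windows and in 0 of these 4. A match of letters is a description of the window and not a binding site.

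Other genes of the precursor stage gave values close to those of the members other than Cspg4. Of 20 genes listed, 17 had a probe set of 1 gene and 14 were bright enough to test, 10 with a difference above and 4 below 0, where 54.8% of 12875 genes were below 0. In limma 0 passed the adjusted threshold and 0 had an unadjusted p under 0.05, against 0.0155% and 9.63% of all genes. Their median log2 difference was 0.07, against -0.03 over all genes, and turned to -0.09 with a common median for all arrays. The smallest p belonged to Sox6, a SOX factor of precursors (0.51, SE 0.28, limma adjusted p = 0.557), and to the protocadherin gene Pcdh15 (-0.48, SE 0.32, adjusted p = 0.62). Ptprz1, a receptor phosphatase carrying chondroitin sulphate like NG2, gave 574 to 987 in the wild-type and 733 to 943 in the Dap12-deficient cultures. Bcan, encoding the matrix proteoglycan brevican, gave 444 to 558 and 502 to 520. Neither of these 2 proteoglycan genes showed the low deficient signals of Cspg4.

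Among the ligands of Pdgfra, Pdgfa was higher by its values and Pdgfc overlapped. Pdgfa, the principal ligand for precursors, gave 339, 336 and 374 in the wild-type and 648, 484 and 476 in the Dap12-deficient cultures. All deficient arrays were above all wild-type arrays, and the difference on the log2 scale was 0.58 (SE 0.20, limma adjusted p = 0.365). Pdgfc had a difference of 0.25 (SE 0.23, adjusted p = 0.721). Pdgfb, whose product chiefly binds the related receptor Pdgfrb, had -0.15 (SE 0.18, adjusted p = 0.796) with overlapping arrays. The median of these 3 genes was 0.25, and -0.03 with the term for Y-linked genes described below. Of 7 genes that hold back differentiation, among them Id2, Id4, Hes1 and Lingo1, 7 had a difference above 0 and 0 an unadjusted p under 0.05, with a median of 0.31, against 9.63% of all genes with such a p. That median was 0.06 with a common median for all arrays and 0.08 without Dap12-deficient replicate 3. Those with the smallest p were the Notch target Hes5 (0.41, SE 0.24, adjusted p = 0.57) and the receptor Notch1 (0.32, SE 0.22, adjusted p = 0.626).

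Of the genes of later stages of the lineage, 0 passed the adjusted threshold in limma. Of 11 tested genes of newly formed oligodendrocytes, 7 were below 0 and 4 above, with a median log2 difference of -0.30, and 5 had an unadjusted p under 0.05, all 5 lower. Over all genes 54.8% were below 0 and 9.63% had such a p. Tmem163, a zinc transporter gene, gave 64.2, 49.2 and 54.0 in the wild-type and 7.44, 26.9 and 24.3 in the Dap12-deficient cultures (-1.06, SE 0.25, limma adjusted p = 0.293). Bcas1, which marks oligodendrocytes that start to myelinate, gave 1376, 626 and 1144 against 589, 490 and 419 (-0.99, SE 0.28, adjusted p = 0.335). Neither gene overlapped between the groups.

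All 13 tested myelin genes were below 0, with a median of -1.25, and 11 had an unadjusted p under 0.05, beside the same 54.8% and 9.63% of all genes. Myrf, a transcription factor needed for myelination, had the smallest p among them, with 48.1, 31.4 and 40.7 in the wild-type and 9.51, 3.21 and 7.63 in the Dap12-deficient cultures (-1.30, SE 0.20, limma adjusted p = 0.164). Arrays of 3 of the 13 genes did not overlap between the groups, against 16.4% of all genes. Mog, encoding a myelin surface glycoprotein, was next (-1.88, SE 0.49, adjusted p = 0.311), and its arrays overlapped.

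**Figure D4:**
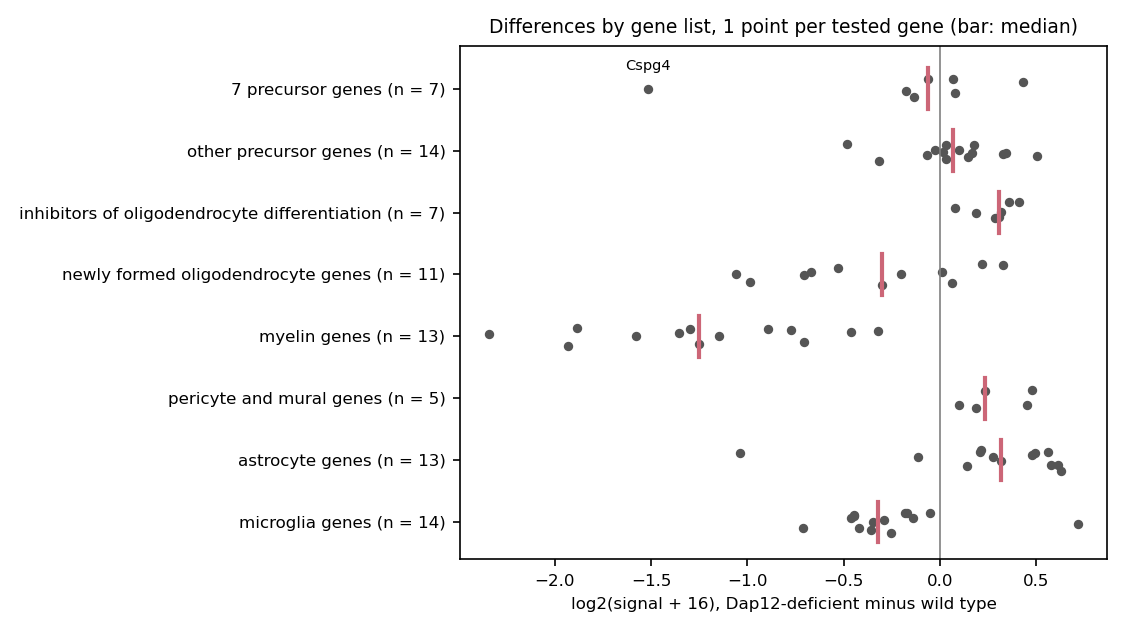
Differences on the scale of log2(signal + 16), Dap12-deficient minus wild-type, with 1 point per tested gene (brightest probe set) and a red bar at the median of each list; the vertical scatter within a list has no meaning. Cspg4, at -1.51, is apart from the other 6 members, lies left of all 14 other precursor genes and falls within the range of the myelin genes, whose median is -1.25.

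Mbp and Cspg4 did not follow the same order among the deficient cultures. Mbp, the myelin basic protein gene, gave 4714, 1142 and 358 in deficient cultures 1, 2 and 3, a 13.2-fold range, against 5535, 3839 and 5283 in wild-type cultures. Cspg4 had a 1.28-fold range over the same 3 arrays. On Dap12-deficient array 1, Mbp was inside its wild-type range while Cspg4 was at 45.8. Of the same list, Mag, Mog, Mobp, Ugt8a, Mal, Cldn11 and Ermn were also inside theirs, and Fa2h was not below its range. Below their wild-type ranges on that array, as Cspg4 was, were Myrf, given above, and Cnp (597 against 828 to 1609). So were the dim genes Opalin, encoding a membrane protein of oligodendrocytes (15.6 against 16.9 to 25.3), and Aspa, an aspartoacylase gene (7.52 against 10.1 to 23.2). Aspa, at 7.52, 9.64 and 6.09, also had the order of Cspg4 among the deficient cultures. With the mean log2 signal of 5 myelin genes (Mbp, Mobp, Mog, Mag and Ugt8a) as a term in the limma fit, the difference of Cspg4 was -1.51 (SE 0.25), with an adjusted p of 0.191. On deficient array 1 that mean was 8.52, inside its wild-type range of 7.98 to 9.21. The term therefore could not take up a low signal on that array. Whether Cspg4 follows the myelin genes is not decided by this fit.

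**Figure D5:**
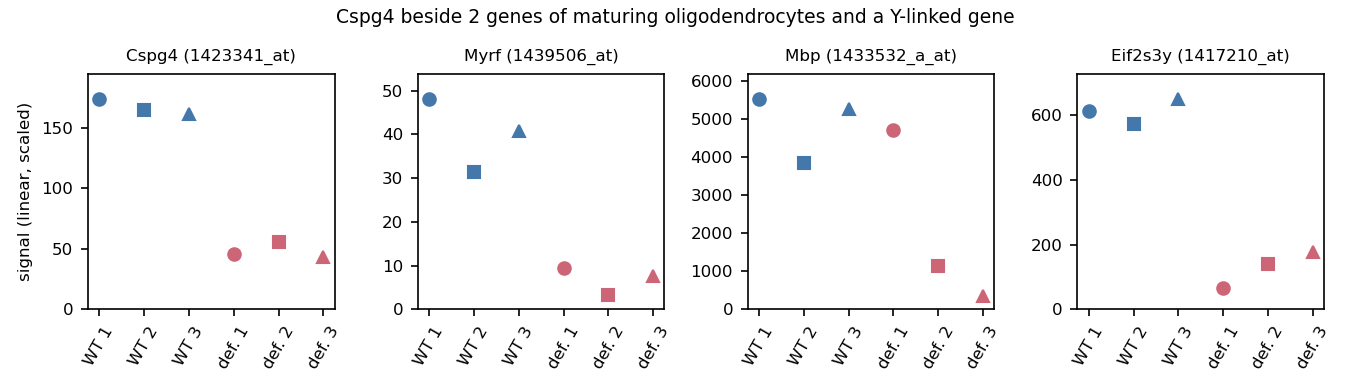
Signals (linear, scaled) on the 3 wild-type (WT, blue) and 3 Dap12-deficient (def., red) arrays for Cspg4, the myelination factor gene Myrf, the myelin gene Mbp and the Y-linked gene Eif2s3y. Cspg4, Myrf and Eif2s3y separate the groups, whereas Mbp on deficient array 1, at 4714, lies among the wild-type values.

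Sex-linked genes moved with the groups, as given above, and were set beside Cspg4 in the same fit. With a term made of the Y-linked genes Eif2s3y, Uty and Kdm5d (their mean log2 signal), the difference of the brighter Cspg4 probe set was -1.60 with an SE of 0.55 (limma adjusted p = 0.522), and that of the dimmer was 0.10. The Y-linked genes Kdm5d (-1.23, SE 0.23) and Uty (-1.01, SE 0.23) were lower on all 3 deficient arrays. The 3 probe sets of Xist were higher on all 3, with log2 differences of 1.22 to 3.00. The part of sex in the low signal of Cspg4 cannot be told apart from that of genotype.

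Markers of pericytes, the other NG2-bearing cells of the brain, were mostly dim. Of 14 pericyte and mural genes, 9 were below the filter for testing, with signals of at most 11.5 on any array, including Pdgfrb, Rgs5, Kcnj8 and Abcc9. Pdgfrb, the defining receptor of pericytes, was at 4.06 to 6.92 in the wild-type and 0.404 to 3.59 in deficient cultures, and Kcnj8 was at most 1.72. The 5 genes that could be tested all had differences above 0, with a median of 0.23 (0.0076 with a common median), and the smallest p were those of Notch3 (0.45, SE 0.18, limma adjusted p = 0.417) and Tagln (0.48, SE 0.46, adjusted p = 0.734). Their summed signal ranged from 342 to 496 in the wild-type and from 326 to 1256 in the Dap12-deficient cultures, with the highest value on array 3. Acta2 gave 245, 228 and 996 in deficient cultures against 262 to 390, and Tagln 34.8, 32.1 and 188 against 38.1 to 45.9. Both were thus below wild-type on deficient arrays 1 and 2 and above it only on array 3. Notch3 was above wild-type on every deficient array, and Des and Mcam overlapped. Of the Schwann cell genes, another lineage that uses Sox10, 2 were tested, Cdh19 (-0.43, SE 0.33) and Egr2 (-0.33, SE 0.30), and their arrays overlapped. Another 2, Pmp2 and Dhh, were too dim to test. Pmp2 had 4.93 to 19.3 in the wild-type and 1.59 to 2.54 in deficient cultures, and Dhh overlapped.

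Markers of other cell types in the cultures also differed by their values, with 0 genes of each list past the adjusted threshold. Over all genes 54.8% were below 0. Of 13 tested astrocyte genes 11 were above 0, with a median of 0.32 and a summed signal of 2395 to 3701 in the wild-type and 2828 to 4311 in the Dap12-deficient cultures, the highest on array 3. The median was 0.15 with a common median for all arrays and 0.09 without Dap12-deficient replicate 3. S100b, encoding a calcium-binding protein that oligodendrocyte precursors also make, was one of the 2 below 0 (-1.04, SE 0.46, adjusted p = 0.463). The glutamate transporter genes Slc1a2 (0.58, SE 0.22, limma adjusted p = 0.408) and Slc1a3 (0.63, SE 0.26, adjusted p = 0.436) had the smallest p. With Slc4a4 they were the only 3 genes of the list above wild-type on every deficient array. On deficient array 2, Gfap (15.3 against 28.5 to 74.7), Aqp4 (33.9 against 49.4 to 122), Gja1 and Clu were below wild-type. The mean log2 signal of the list was 7.05, 6.47 and 7.58 in the deficient and 6.59 to 6.91 in wild-type cultures. Of 14 microglia genes 13 were below 0, with a median of -0.32, or -0.55 with a common median for all arrays. Their summed signal was 34246 to 46348 in the wild-type and 28111 to 38292 in the Dap12-deficient cultures. Those with the smallest p were the receptor gene Gpr34 (-0.71, SE 0.23, adjusted p = 0.35) and the transcription factor gene Sall1 (-0.42, SE 0.19, adjusted p = 0.466). Of 11 tested neuron genes 7 were below 0 and 4 above, with a median of -0.17. Gad1 (-0.62, SE 0.23) and Tubb3 (-0.64, SE 0.21) had the smallest p, while Rbfox3 (0.15, SE 0.19) and Eno2 (0.08, SE 0.25) were among those above 0. Fibroblast and meningeal genes had a median of 0.27 over 8 genes, 6 above 0 and 2 below, Islr having 0.69 (SE 0.26) and Postn -1.03 (SE 0.31). The part of these cell types in the difference of Cspg4 was not tested.

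The nearest measured gene to Cspg4 on its chromosome, Snx33, which is the next protein-coding gene on one side in the order of GRCm38.p6, did not share its difference. Signals of Snx33, a sorting nexin gene, were 83.2, 99.9 and 75.7 in the wild-type and 70.0, 91.4 and 128 in the Dap12-deficient cultures, with overlapping arrays and 0.11 as the log2 difference (SE 0.23, limma adjusted p = 0.888). Imp3 beyond it had -0.24 (SE 0.27), and Lingo1, the second gene on the other side, 0.08 (SE 0.18) on its brighter probe set.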

How the data were processed

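Total RNA extracted with Trizol and RNeasy was labelled with biotin in a kit with repeated amplification, per the labels' protocols. The values deposited for each probe set are intensity values on a linear scale, and the submitters' processing notes name GCOS without a version, algorithm or settings. The mean after trimming 2% at each end was 100.0 on every array, so the arrays had been scaled to a common target. No value was shared between arrays. Amplification of this kind shortens transcripts, which can dim probes far from the 3′ end.

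Here log2 was taken after adding 16. Probe sets with a mean at or above the 40th percentile (8.51) were kept, 27022 in all after leaving out 64 controls. The fits were made in R 4.3.3 with limma 3.58.1 (lmFit, two-sided eBayes with trend), with Benjamini-Hochberg adjustment over all of them. A gene was represented by its brightest probe set. Ratios of Cspg4 to other members were tested by exact permutation over arrays (scipy 1.17.1). The limma step was tried on simulated data in which probe sets varied independently, so shifts of a whole array or culture were not covered. Plots used matplotlib 3.10.9.

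Members, lists and tests were chosen with earlier results of these data known, among them the low values of Cspg4, Myrf and myelin genes and the values of Olig1, Olig2 and Pdgfra, which therefore give no independent support. Genes named were the members, Tyrobp, sex-linked genes, the 2 genes of smallest p in each of 11 lists and the 3 nearest in pattern to each member. Csf1r, Vcan, Ptprz1, Bcan, Mbp, Aspa, Opalin, Pdgfb, S100b, Pdgfrb, Kcnj8 and the neighbours of Cspg4 were chosen after their values were seen. Alternatives were other pseudocounts, scalings, filters, priors, array weights, probe set choices, covariates and leaving out each array.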

Additional observations from a re-analysis of the deposited data

How the results depend on the processing

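The difference of the brighter Cspg4 probe set was below 0 in all 20 alternative limma fits, from -1.78 with a pseudocount of 1 to -1.04 with a pseudocount of 64. Its adjusted p ran from 0.024 to 0.524 and passed 0.05 in 6 of them, in each of which 1 precursor gene probe set was called, this one, against 0 with all arrays and the settings above. These were a common median (-1.73, adjusted p = 0.0288), eBayes without trend (-1.51, 0.0491), array weights (-1.50, 0.0299), dropping the _x_at and _s_at probe sets, which match several transcripts (-1.51, 0.046) and leaving out Dap12-deficient replicate 1 or 2. Leaving out each array in turn gave -1.59 to -1.46 for Cspg4 and 0 to 1 precursor probe sets called. Over all probe sets 2 were called, but 5 with a common median, 4 with array weights, 11 with the sex term, 5 with the myelin term, 15 without Dap12-deficient replicate 1 and 171 without Dap12-deficient replicate 2. The myelin list had 0 genes called, but 3 with the sex term and 0 to 2 when an array was left out.

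A common median moved the median difference of all probe sets from 0.03 to -0.16 and the share of higher ones among those with an unadjusted p under 0.05 from 66.1% to 20.2%. Relative to that median Cspg4 was at -1.57, against -1.54 as deposited. The count of precursor probe sets without overlap was 4 to 6 over all alternatives, against 5. Differences of Olig1, Olig2, Gpr17, the brightest Pdgfra and the second Sox10 probe set, all near 0, changed sign in 2, 3, 4, 2 and 3 of 20 fits, with adjusted p of at least 0.492. All 6 ratios of Cspg4 stayed below 0 in all 12 alternatives, from -2.39 to -0.83. The -0.83, relative to Gpr17, came from averaging all probe sets of each gene, which brings in the dimmer one of Cspg4. No paired analysis was possible because replicates were numbered by order of deposit and the labels give no number shared between groups. Signals near background limit what can be said of the dimmer probe sets, and detection calls were not used here.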
